A study of Homo sapiens with 171 samples.

Results

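Expression of 8 genes of DNA damage tolerance was described in established ovarian cancer cell lines given cisplatin: the translesion polymerase genes POLH, POLK, POLI and REV1, the subunit genes REV3L and MAD2L2 of polymerase zeta, the polymerase gene POLQ, and RAD18. They were chosen by name from the 18417 genes that the array measured with a probe set annotated to 1 symbol. Each of the 8 had 1 such probe set. Earlier results of these data were known when the genes and the gene lists compared below were chosen. Cisplatin-treated cultures (82) had received the drug for 48 h at a GI50 dose, one that cuts growth by a fixed share and was set for every line, so the dose differed between lines, and untreated cultures (85) had received none. The labels give 46 lines in 5 batches. Replicate cultures exist for 18 lines, all in batches 1 to 3, with 3 treated and 3 untreated cultures (2 treated for HeyA8). For the 28 lines taken from batches 4 and 5 there was 1 treated and 1 untreated culture. Whether the cultures of a line were separate growths is not in the labels, so within-line p-values reflect a spread that may be technical only.

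Cisplatin forms adducts and crosslinks on DNA that stop the replicative polymerases. Translesion polymerases have roomier active sites and copy past such lesions, at the price of more errors, and RAD18 recruits them by attaching ubiquitin to PCNA, the ring that holds polymerases on DNA. POLH encodes polymerase eta, which inserts bases opposite platinum adducts, and REV3L with MAD2L2 forms polymerase zeta, which extends from the inserted base. REV1 is a scaffold that binds the others, POLK and POLI encode polymerases kappa and iota, and POLQ encodes polymerase theta, which joins broken ends through short matching sequences and can also copy past lesions.

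The promoters of POLH, POLQ and RAD18 are shown because these 3 genes had the highest mean changes. Of the gene lists compared, POLH also followed p53 target genes most closely over all lines, and the other pair genes of G1/S and replication. The sequences are those of RefSeq (GRCh38.p14), from 250 bases before to 50 bases after the annotated start, and positions are counted from that start. Capitals mark the letters GCGGGAA, found in E2F sites of genes switched on at the G1/S transition, and TTTGAA, the core of the CHR element of cell-cycle genes. Both strands were searched.
POLH, chr6:43575935-43576234, plus strand: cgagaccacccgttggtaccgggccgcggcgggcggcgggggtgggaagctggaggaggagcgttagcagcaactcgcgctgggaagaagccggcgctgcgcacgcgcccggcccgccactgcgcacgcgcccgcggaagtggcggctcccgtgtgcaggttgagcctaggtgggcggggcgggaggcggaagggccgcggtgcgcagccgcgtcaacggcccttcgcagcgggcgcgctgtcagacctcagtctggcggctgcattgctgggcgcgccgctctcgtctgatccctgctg
POLQ, chr3:121545939-121546238, minus strand: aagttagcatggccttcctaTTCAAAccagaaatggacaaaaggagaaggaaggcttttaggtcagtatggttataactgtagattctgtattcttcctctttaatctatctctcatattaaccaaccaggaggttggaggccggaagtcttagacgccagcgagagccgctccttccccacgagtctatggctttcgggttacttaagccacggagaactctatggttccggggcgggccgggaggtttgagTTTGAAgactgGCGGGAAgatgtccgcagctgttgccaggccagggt
RAD18, chr3:8963423-8963722, minus strand: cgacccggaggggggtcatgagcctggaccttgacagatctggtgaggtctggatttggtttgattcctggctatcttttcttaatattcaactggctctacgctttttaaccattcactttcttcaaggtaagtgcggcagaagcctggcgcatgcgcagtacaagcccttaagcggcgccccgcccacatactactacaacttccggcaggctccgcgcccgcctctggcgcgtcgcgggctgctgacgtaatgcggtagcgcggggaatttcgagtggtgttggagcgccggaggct
The POLQ window held TTTGAA at 4 and GCGGGAA at 15, a few bases apart, and a further TTTGAA on the opposite strand at -230. Of 35116 promoter windows of this length, 6.55% held GCGGGAA, 15.2% held TTTGAA and 0.535% held both. The windows of POLH and RAD18 held neither. Among the genes not shown, GCGGGAA was also in the window of POLI, at -213. It was also at -87 on the opposite strand for a further start of REV3L, and at -62 for a further start of MAD2L2. The GC box GGGCGG, present in 44.95% of all windows, occurred 3 times in POLH, and once each in POLQ and RAD18. The p53 half-site, searched by its consensus and present in 6.63% of windows, was in none of the 3 windows shown. These matches are descriptions of letters in a window.

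Levels are log2 values made by the authors with RMA, a method that corrects background and combines the probes of a gene. The upper quartile of an array lay at 7.82 to 8.08 in batches 1 to 3. In batches 4 and 5 it lay at 5.80 to 6.59. Levels of the 8 genes were therefore ranked only within a batch, and every change is treated minus untreated within a line and batch. Marker levels below are pooled over batches 1 to 3 or over batches 4 and 5 without adjustment for batch. They cannot be compared between these sets. An array reads a mean over the culture, so a change in a share of the cells and a change in every cell cannot be told apart. The treated culture of Hey stood apart: its values correlated with those of untreated Hey cells at r = 0.834, against 0.939 to 0.997 for each other culture and its best match of the same line. The next lowest were OV56 (0.939), OAW28 (0.955), SKOV-6 (0.959) and treated OVCAR-10 culture 1 (0.959). SKOV-6 had the highest change of the 46 lines for POLK, POLI, REV1, REV3L and RAD18. The values of treated Hey spread by 1.44 over genes (SD), against 1.86 to 2.28 in the other lines. Several mean changes and correlations of change are therefore given with and without Hey. The mean of 11 epithelial markers ranged over 5.68 to 11.33 in treated and 5.69 to 11.31 in untreated lines of batches 1 to 3. Of these markers KRT19 (-0.23) and CLDN3 (-0.19) fell over the 46 lines, where 4.72% of all genes were called lower. In batches 1 to 3 the untreated medians were 12.24 for KRT8, 12.32 for KRT18, 7.29 for EPCAM and 5.77 for CDH1, and 4.63 for GRHL2, 4.24 for RAB25 and 5.36 for CLDN4. In batches 4 and 5 they were 8.70 for KRT8, 8.37 for KRT18, 10.83 for EPCAM and 7.53 for CDH1. Untreated TYK-nu had the highest levels of the endothelial genes PECAM1 (12.17), CDH5 (11.04), TEK (10.06) and KDR (9.62) in batches 1 to 3, where the medians were 4.43, 6.05, 4.20 and 4.19. The endothelial gene VWF was at 5.29 in TYK-nu, near its median of 4.81, and CLDN5 was highest in CH1 (6.44, median 6.24). The mean of the 12 endothelial and fibroblast markers in batches 1 to 3 ranged over 4.73 to 7.06 in treated and 4.71 to 6.99 in untreated lines. That of 8 ovarian markers ranged over 5.65 to 7.39 in treated and 5.45 to 7.32 in untreated lines of these batches. Their untreated medians there ran from 4.72 for EMX2 to 7.49 for PAX8. Of the ovarian markers EMX2 (-0.18) fell over the 46 lines and 7 did not pass. The leukocyte gene PTPRC had a median of 2.89 in batches 1 to 3, where it was highest in OVCAR-10 (9.48), and of 2.51 in batches 4 and 5. Of 9 leukocyte markers LYZ (0.35) and CD68 (0.26) rose under cisplatin over the lines, and the other 7 did not pass. Of all genes 4.98% were called higher. In batches 1 to 3 the untreated median of LYZ was 3.18, with 11.54 in OV90 the highest. In batches 4 and 5 that median was 2.70. The mean level of the leukocyte list in batches 1 to 3 ranged over 4.57 to 6.07 in treated and 4.59 to 5.92 in untreated lines. In batches 4 and 5 the list ranged over 3.66 to 4.56 in treated and 3.60 to 4.28 in untreated lines. The part of these markers in the changes below was not tested.

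Over the 46 lines POLH and POLQ rose under cisplatin, and the other 6 genes did not pass the test. On the log2 scale, POLH rose by 0.31 ± 0.07 (1.24-fold; SE over 46 lines) and was higher in 35 lines, with a limma adjusted p of 0.00237. POLQ rose by 0.29 ± 0.09 (SE, 1.23-fold) and was higher in 31 lines, with a limma adjusted p of 0.0233. These rises were 0.33 for POLH and 0.34 for POLQ without Hey (limma adjusted p = 0.00069 and 0.0028). Thus 2 of 8 rose, where 4.98% of all genes were called higher, 4.72% lower and 9.7% in either direction. The median change was 0.11 over the 8 genes, against -0.01 over all genes.

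RAD18 changed by 0.17 ± 0.07 and was higher in 31 lines (limma adjusted p = 0.125, 95% interval 0.03 to 0.30). Without Hey, where it was lowest at -1.54, RAD18 changed by 0.20 and passed the test (limma adjusted p = 0.0152). REV3L changed by 0.13 ± 0.06 (interval 0.01 to 0.26, limma adjusted p = 0.173), and MAD2L2 by 0.08 ± 0.05 (interval -0.02 to 0.18, limma adjusted p = 0.326). The remaining changes were 0.03 ± 0.06 for POLK, -0.0022 ± 0.05 for REV1 and -0.06 ± 0.07 for POLI (SE, n = 46 each), and without Hey they were 0.058 for POLK, 0.028 for REV1 and -0.0067 for POLI. Their 95% intervals ran over -0.10 to 0.15 for POLK, -0.11 to 0.11 for REV1 and -0.20 to 0.09 for POLI, so changes of the size seen for POLH lay outside all 3.

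**Figure D1:**
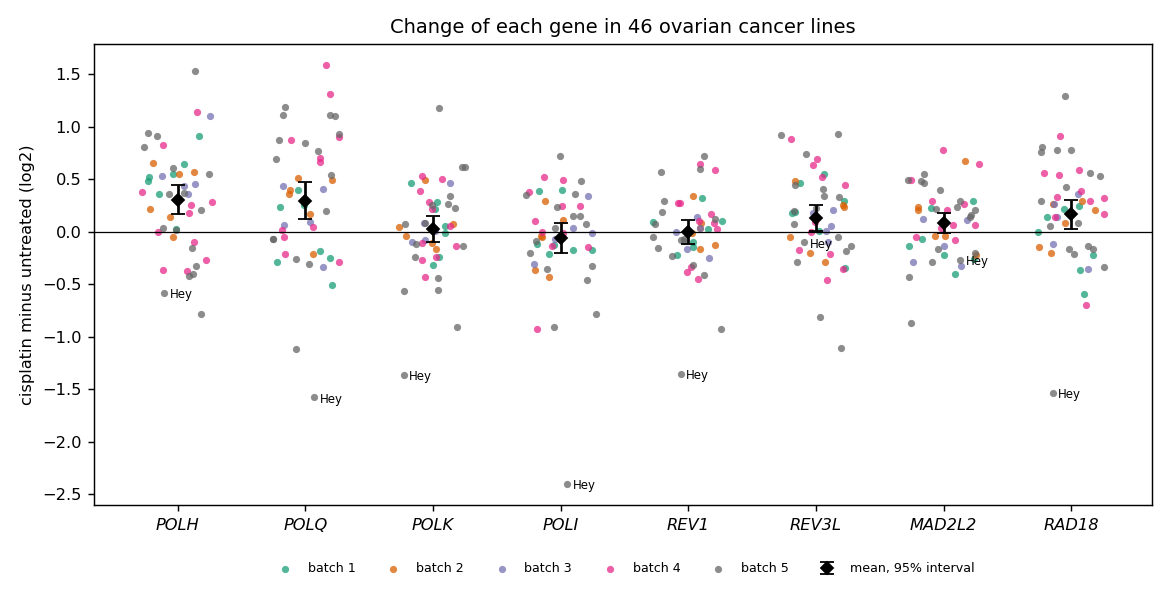
Change of each gene (cisplatin minus untreated, log2) in each of 46 lines, as points coloured by batch, with the mean over lines and its 95% interval as a diamond and bar. The POLH and POLQ means lie at 0.31 and 0.29, and Hey is the lowest line for POLQ, POLK, POLI, REV1 and RAD18.

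POLH rose in most lines that had replicates. Within a line it passed the limma test in 14 of 18 and fell in none, where 4.55% of all gene and line pairs were called higher. In C13 the treated cultures had POLH levels of 9.44, 9.66 and 9.44, against 8.59, 8.29 and 8.35 in untreated ones. C13 had the highest change of the replicated lines, at 1.10 ± 0.09 (SE, limma adjusted p = 3.67e-17). A2780 had 8.70, 8.78 and 8.88 in treated cultures, against 7.86, 7.94 and 7.82 in untreated ones, a rise of 0.91 ± 0.09 (limma adjusted p = 9.92e-13). Treated CH1 cultures had 8.25, 8.10 and 8.001, against 7.53, 7.28 and 7.57 in untreated cultures, a rise of 0.66.

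In each of these lines the treated cultures all lay above the untreated ones. This held for POLH in 15 of the 18 lines, where 13.1% of all gene and line pairs showed it and 12.1% showed the reverse. The lines that did not pass were TYK-nu at 0.02, OVCA433 at 0.06, A2008 at 0.14 and FU-OV-1 at 0.21. TYK-nu had 8.25, 8.04 and 8.06 in treated cultures, against 8.15, 8.04 and 8.10 in untreated cultures, and these overlapped. OVCA433, with the highest untreated POLH level of batch 2, had 9.52, 9.51 and 9.49 in treated and 9.45, 9.47 and 9.42 in untreated cultures.

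**Figure D2:**
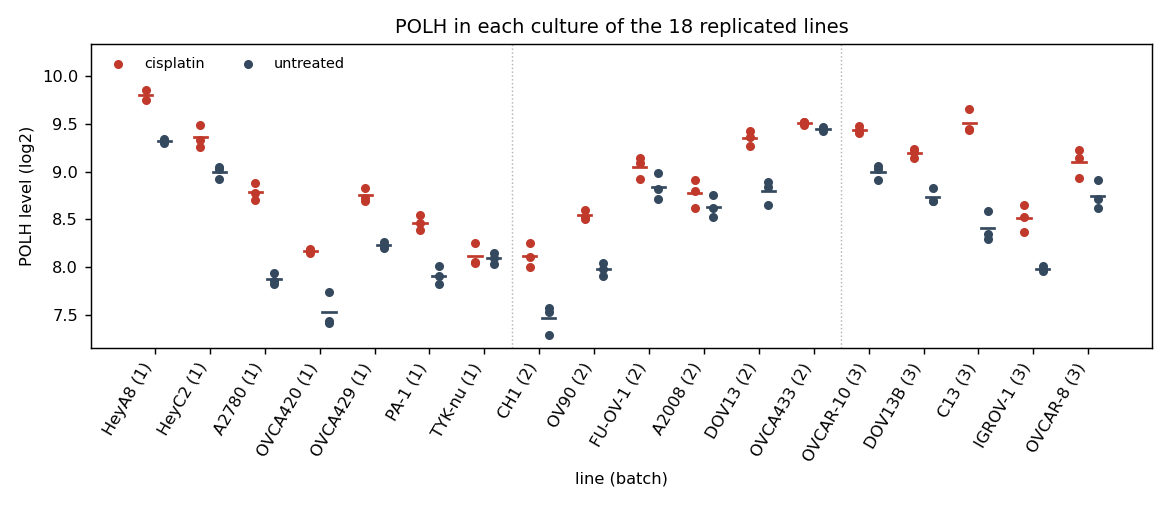
POLH level (log2) in each culture of the 18 replicated lines, treated cultures to the left of untreated ones, with a bar at each mean and dotted lines between batches. Treated cultures lie clear above untreated ones in lines such as C13, A2780 and CH1, and overlap them in TYK-nu.

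Among the 28 lines with 1 culture per arm, POLH varied more. It was higher after cisplatin in 18 of 28, and in 18 of 18 replicated lines when OVCA433 is taken from batch 2. In batch 4 the single OVCA433 cultures had 8.48 treated and 8.86 untreated, and with both batches combined OVCA433 was at -0.047, which gives the 35 lines above. The mean change was 0.20 ± 0.57 in the single-culture lines and 0.48 ± 0.27 in the replicated ones (SD over lines). The difference of 0.28 between the replicated and the single-culture lines was a contrast chosen after seeing the data and did not pass (limma adjusted p = 0.489). The limma F test over the batches passed for 0 of the 8 genes, also at an unadjusted p under 0.05. It called 0% of all genes, of which 699 had an unadjusted p under 0.05, and the contrast of the sets of lines called 15. POLH averaged 0.50, 0.37, 0.58, 0.18 and 0.22 in batches 1 to 5. The highest change was in RMG-II, with 8.94 in the treated and 7.41 in the untreated culture, a difference of 1.53. The lowest was in TOV-112D, with 6.95 in the treated and 7.74 in the untreated culture, a difference of -0.78. OAW42 had 9.23 treated and 8.09 untreated. For scale, cultures of 1 arm of a replicated line differed in POLH by an SD of 0.10 (71 degrees of freedom), which would give a difference of single cultures an SE of 0.14.

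The POLH change followed that of p53 target genes over lines, and that of REV3L did in part. Over the 46 lines it correlated with the mean change of 27 p53 targets, none of them among the 8 genes, at r = 0.70 (Spearman 0.69), and at 0.67 without OAW42 and DOV13A, the lines farthest from the median of that mean. Within batches 1 to 3 the correlation was 0.47 over 18 lines, and within batches 4 and 5 it was 0.72 over 28 lines. REV3L correlated with the same targets at 0.46 over all lines, 0.71 in batches 1 to 3 and 0.45 in batches 4 and 5, and MAD2L2 at -0.26, -0.57 and -0.08. Each point takes both values from the same arrays, and these correlations are descriptions. Of these targets 21 rose, 0 fell and 6 did not pass over the lines. The genes whose change was most like that of POLH were RPA1, which coats single-stranded DNA (r = 0.71), and the p53 targets ZMAT3 (0.70) and DDB2 (0.69), which encodes a damage sensor of nucleotide excision repair.

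CDKN1A, the p53 target whose product p21 halts the cell cycle, rose by 0.63 ± 0.08 over the lines (SE, n = 46), and MDM2, the ubiquitin ligase of p53, by 0.23 ± 0.07. The MDM2 call was lost without batch 1, 2 or 3 (0.19, 0.21 and 0.19, limma adjusted p = 0.0935, 0.0827 and 0.0966) and with related lines averaged (0.19, 0.0597). Single lines departed from this pairing. In A2008 CDKN1A rose by 1.47 (limma adjusted p = 4.69e-12) while POLH was at 0.14. In OVCA420 POLH rose by 0.64 and in CH1 by 0.66, while CDKN1A was at 0.25 and 0.17 there and did not pass. In TYK-nu neither passed, with CDKN1A at -0.01.

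POLQ rose in fewer of the replicated lines. It passed the limma test upward in 5 of 18 lines, DOV13, OV90, C13, OVCA420 and FU-OV-1, and fell in HeyA8, where 4.55% and 3.68% of all pairs were called higher and lower. The share of all genes called higher was 2.64% in DOV13, 1.12% in OV90, 10.3% in C13, 6.96% in OVCA420 and 17.3% in FU-OV-1. In HeyA8 7.8% of all genes were called lower. The treated DOV13 cultures had POLQ levels of 7.28, 7.08 and 7.17, against 6.57, 6.64 and 6.78 in untreated ones, a rise of 0.51 ± 0.13 (limma adjusted p = 0.00899). OV90 had 7.29, 7.26 and 7.23 in treated and 6.63, 6.74 and 6.94 in untreated cultures, a rise of 0.49. In HeyA8 POLQ fell to 7.26 and 7.29 in treated cultures, against 7.92, 7.70 and 7.72 in untreated ones, a difference of -0.50 ± 0.14 (limma adjusted p = 0.00723).

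In these 3 lines the arms did not overlap. The treated cultures lay wholly above the untreated ones in 8 of 18 lines and wholly below in 1, beside 13.1% and 12.1% of all pairs. The mean POLQ change was -0.05, 0.29, 0.13, 0.50 and 0.35 in batches 1 to 5, and over the 18 replicated lines alone it was 0.11, which did not pass (limma adjusted p = 0.380). The call over all lines was also lost without batch 4 (0.23, limma adjusted p = 0.225) and without batch 2 (0.30, limma adjusted p = 0.0596). The highest single-culture change was in OAW42, with 7.76 treated and 6.17 untreated, a difference of 1.59.

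RAD18 moved in both directions. Over the 18 replicated lines it rose in 5, namely OVCAR-8, DOV13, FU-OV-1, C13 and PA-1, and fell in 3, namely HeyA8, HeyC2 and IGROV-1. Of all pairs 4.55% and 3.68% were called higher and lower. The share of all genes called higher was 9.12% in OVCAR-8, 2.64% in DOV13, 17.3% in FU-OV-1, 10.3% in C13 and 12% in PA-1. The share called lower was 7.8% in HeyA8, 2.3% in HeyC2 and 5.27% in IGROV-1. In HeyA8 the treated cultures had RAD18 levels of 8.97 and 8.91, against 9.48, 9.62 and 9.48 in untreated ones, a fall of 0.59 ± 0.10 (SE, limma adjusted p = 2.37e-06).

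The closely named HeyC2 had 8.63, 8.60 and 8.57 in treated and 8.98, 8.93 and 8.98 in untreated cultures, so the arms did not overlap there either. In OVCAR-8 they lay the other way, with 9.62, 9.54 and 9.44 in treated and 9.27, 9.12 and 9.12 in untreated cultures, a rise of 0.36 ± 0.09 (limma adjusted p = 0.00164). Of the single-culture lines SKOV-6 had the highest RAD18 change, with 9.08 treated and 7.79 untreated. RAD18 was higher after cisplatin in 21 of 28 single-culture lines and in 10 of 18 replicated lines.

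**Figure D3:**
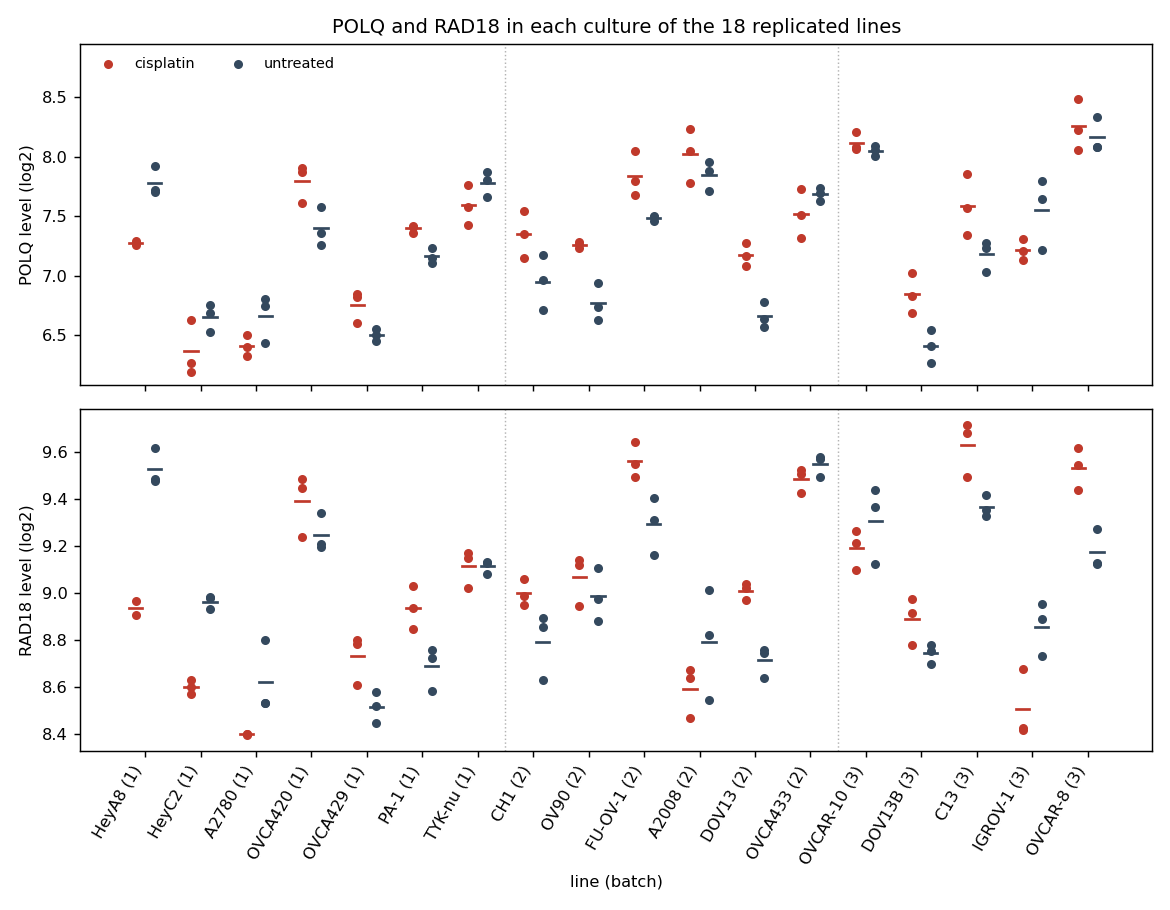
POLQ level (upper panel) and RAD18 level (lower panel) on the log2 scale in each culture of the 18 replicated lines, treated cultures to the left of untreated ones, with bars at the means. Both genes lie lower in treated than in untreated HeyA8 cultures and higher in treated than in untreated DOV13 cultures.

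POLQ and RAD18 varied together, and with genes of DNA replication and of mitosis. Their changes correlated at r = 0.75 over 46 lines, and at 0.66 without Hey and SKOV-6. REV1 varied with both, at 0.71 with POLQ and 0.68 with RAD18, and at 0.59 and 0.49 without Hey and SKOV-6. With the mean change of 29 genes of the G1/S transition and replication, POLQ correlated at 0.75 and RAD18 at 0.76. Without Hey and HeyA8, the lines farthest from the median of that mean, these were 0.66 for POLQ and 0.60 for RAD18. Within batches 1 to 3 they were 0.63 for POLQ and 0.68 for RAD18, and within batches 4 and 5 they were 0.77 for both.

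With the mean change of 23 mitotic genes the correlations were 0.54 for POLQ and 0.62 for RAD18, and 0.38 and 0.44 without Hey. In batches 1 to 3 they were 0.78 for POLQ and 0.63 for RAD18, and in batches 4 and 5 they were 0.54 and 0.65, with -0.36 and -0.04 in batch 4 alone. In batch 4 the replication list gave 0.75 for POLQ and 0.66 for RAD18.

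POLH correlated with the replication list at 0.27 over all lines, 0.13 without Hey, 0.02 in batches 1 to 3 and 0.44 in batches 4 and 5. With the mitotic genes POLH correlated at 0.46 over all lines and 0.39 without Hey, near the values of POLQ and RAD18 without Hey. In batches 1 to 3 POLH was at 0.20 with these genes, and in batches 4 and 5 at 0.52. RAD18 correlated with the p53 targets at 0.03 over all lines, -0.09 without Hey, -0.43 in batches 1 to 3 and 0.24 in batches 4 and 5. The genes most like POLQ in change were FIRRM (r = 0.90), which acts in crosslink repair, NUP205 of the nuclear pore (0.89) and FANCI of the Fanconi anaemia pathway (0.88). Those most like RAD18 were EXO1, an exonuclease of mismatch and break repair that is also in the replication list (0.89), CIP2A (0.89) and CCDC14 (0.88). All these correlations are descriptions over lines, and both values of a point come from the same arrays.

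**Figure D4:**
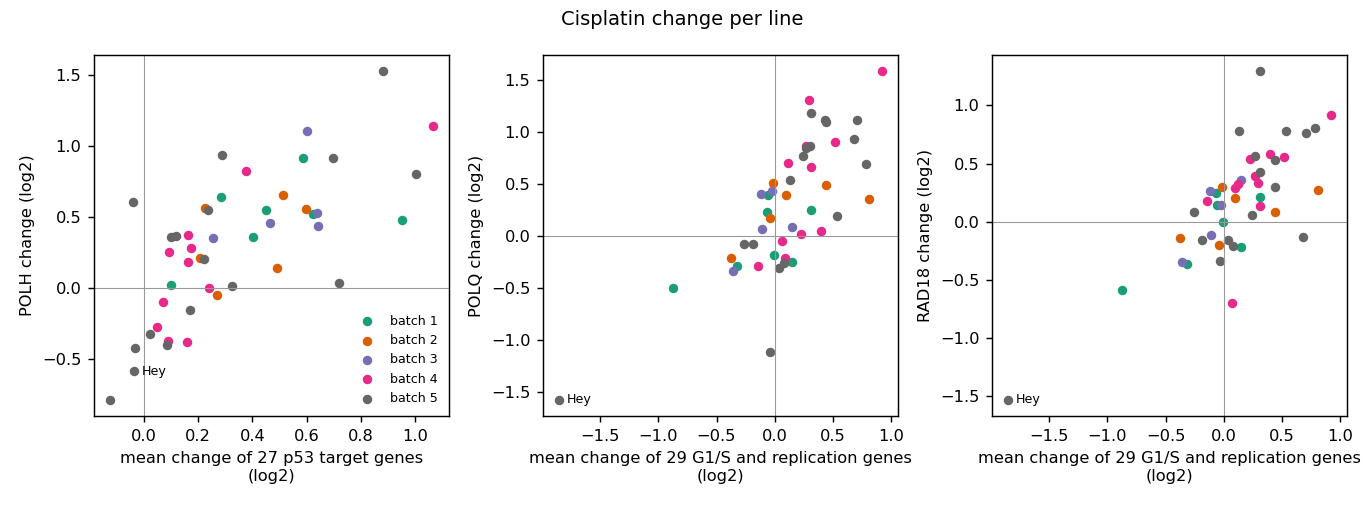
Change of POLH against the mean change of 27 p53 target genes (left), and of POLQ and RAD18 against the mean change of 29 G1/S and replication genes (middle and right), with 1 point per line coloured by batch and all axes on the log2 scale. The correlations are 0.70 for POLH, 0.75 for POLQ and 0.76 for RAD18, and Hey lies toward the lower left of each panel.

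Of the 18 replicated lines, the polymerase zeta genes REV3L and MAD2L2 passed in 4 and 3, and the scaffold gene REV1 in 1. Of all gene and line pairs 8.23% passed. REV3L, the catalytic subunit, rose in HeyA8, PA-1 and DOV13 and fell in FU-OV-1. In PA-1 treated cultures had REV3L levels of 7.80, 7.84 and 8.05, against 7.35, 7.29 and 7.41 in untreated ones, a rise of 0.55 ± 0.10 (SE, limma adjusted p = 7.37e-05). MAD2L2, whose product REV7 also serves in other complexes, went the opposite way to REV3L in PA-1 and FU-OV-1.

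In FU-OV-1 MAD2L2 had 10.44, 10.49 and 10.37 in treated and 9.69, 9.82 and 9.77 in untreated cultures, a rise of 0.67 ± 0.12 (limma adjusted p = 3.95e-06). In PA-1 it fell by 0.41 and in C13 by 0.33, and the PA-1 cultures were uneven, with 10.28, 9.67 and 9.70 in treated and 10.29, 10.32 and 10.26 in untreated ones. Over all lines the changes of REV3L and MAD2L2 correlated at -0.41, and at -0.36 without Hey and SKOV-6.

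REV1 passed in PA-1 alone, with 8.26, 8.18 and 8.23 in treated and 8.01, 7.79 and 7.92 in untreated cultures, a rise of 0.32 ± 0.11 (limma adjusted p = 0.0275).

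POLK and POLI, the genes of polymerases kappa and iota, passed in 3 of 18 lines each, where 8.23% of all gene and line pairs passed. POLK rose in PA-1, DOV13 and C13, by 0.47, 0.50 and 0.46, where 12%, 2.64% and 10.3% of all genes were called higher. The treated DOV13 cultures had POLK levels of 8.50, 8.53 and 8.50, against 7.90, 7.99 and 8.14 in untreated ones (limma adjusted p = 0.0268). POLI rose in PA-1 by 0.38 and fell in A2008 by 0.43. In HeyC2 it was at 0.40, with overlapping arms and a limma adjusted p of 0.0498, and 62 of 100 fits that each left out 1 culture lost that call. The PA-1 cultures had 9.92, 9.97 and 10.03 when treated and 9.66, 9.59 and 9.53 when untreated (limma adjusted p = 0.0195). The POLI level of Hey was 4.95 treated and 7.35 untreated, the largest fall of any of the 8 genes in a line. The median gene of a batch 5 array lay at 4.56 to 4.83, and whether the treated value exceeds background is not given by the values.

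Of 144 gene and line pairs, 34 passed upward and 8 downward, where 8.23% of all pairs passed. PA-1 had the most, with 6 genes up and MAD2L2 down, and in that line 12% of all genes rose and 10.8% fell. DOV13 had 5 up and 0 down, where 2.64% of all genes rose and 0.668% fell.

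In TYK-nu and OVCA433 none of the 8 passed the limma test (2 and 0 at an unadjusted p under 0.05), where 0.0543% of all genes rose and 0.0217% fell in TYK-nu, and 0.852% rose and 1.83% fell in OVCA433. The change differed between the replicated lines for all 8 genes by the F test, as for 51% of all genes.

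**Figure D5:**
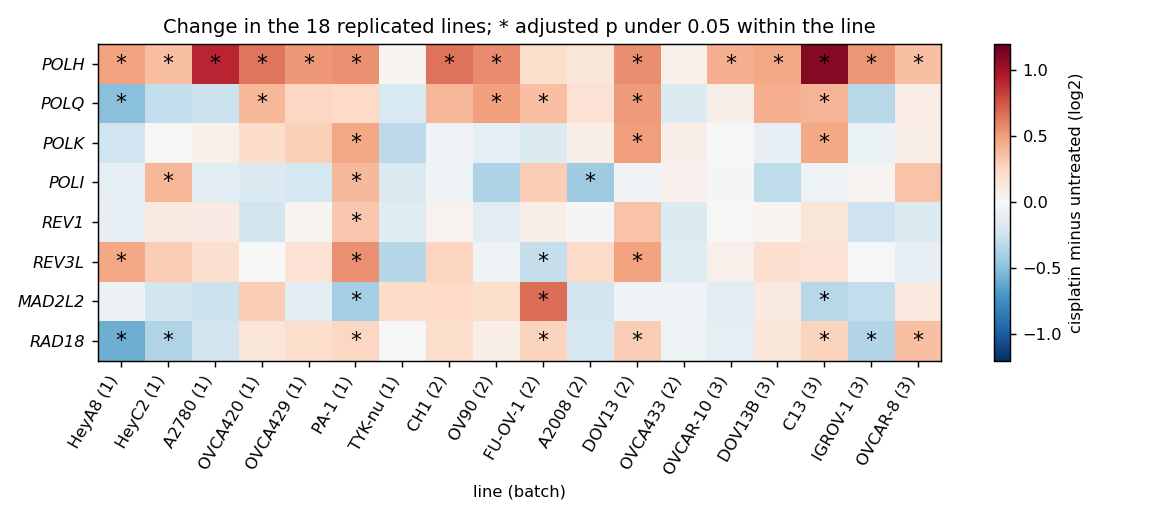
Change under cisplatin (log2, colour) of each gene in each of the 18 replicated lines, with an asterisk where the limma adjusted p within the line is under 0.05. The POLH row is marked in 14 lines and the other rows in 1 to 8.

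The untreated level of each gene differed between the lines of batches 1, 2 and 3 in all 24 tests by gene and batch, as it did for 77.1%, 79.8% and 76.7% of all genes. POLI and MAD2L2 spanned most in batch 1. POLI ranged over 7.58 in HeyA8 to 10.11 in A2780, and MAD2L2 over 7.94 in OVCA420 to 10.29 in PA-1. REV1 spanned least there, from 7.79 in HeyC2 to 8.35 in HeyA8.

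The order of POLH in batch 1 ran HeyA8 (9.32), HeyC2 (8.999), OVCA429 (8.23), TYK-nu (8.09), PA-1 (7.91), A2780 (7.87) and OVCA420 (7.53). The neighbours from OVCA429 to A2780 in this order did not pass the limma test, and the others did. In batch 2 it ran OVCA433 (9.45), FU-OV-1 (8.84), DOV13 (8.80), A2008 (8.63), OV90 (7.98) and CH1 (7.46), and the steps from FU-OV-1 to DOV13 and from DOV13 to A2008 did not pass. In batch 3 it ran OVCAR-10 (8.997), OVCAR-8 (8.75), DOV13B (8.74), C13 (8.41) and IGROV-1 (7.98), and OVCAR-8 and DOV13B alone did not pass. Over all 8 genes, 53 of 120 neighbouring pairs passed, from 3 of 15 for REV1 to 10 of 15 for POLI.

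Untreated RAD18 ranged from 8.52 in OVCA429 to 9.52 in HeyA8 in batch 1 and from 8.74 in DOV13B to 9.36 in C13 in batch 3. In batch 4, with 1 culture per line, it ranged from 7.19 in TAYA to 8.89 in OVCAR-2. POLQ ranged over 6.51 in OVCA429 to 7.78 in HeyA8 in batch 1, and over 6.41 in DOV13B to 8.16 in OVCAR-8 in batch 3. In the 17 lines of batch 5 with both arms, REV3L had the widest range, from 5.33 in SKOV-8 to 9.08 in OVK-18, with 1 culture each.

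Genes with the most similar untreated level, centred within batch over 46 lines, were others than those most similar in change. For POLH they were the butyrophilin genes BTN3A1 (r = 0.58) and BTN3A3 (0.56) and NLRP10 (0.55). For POLQ they were UMPS of pyrimidine synthesis (0.71), MRPL3 (0.67) and the cell-cycle repressor E2F8 (0.67). RAD18 was most like RAD51AP1 of homologous recombination (0.66), the condensin gene NCAPH (0.63) and DLEU2 (0.63). The closest to MAD2L2 were SNRPA (0.75), SKI (0.72) and ENHO (0.71), and the closest to POLK were GYG1 (0.79), AP3B1 (0.77) and MTMR6 (0.75). POLI was closest to GSTA4 (0.77), SPATA6 (0.74) and ATP8B1-AS1 (0.74), and REV1 to C3orf38 (0.66), TTC21B (0.66) and MITD1 (0.65). REV3L was closest to THAP6 (0.70), TEX9 (0.67) and BBS12 (0.63).

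In change, the closest to REV3L were ASCC3 (0.79), RALGAPA1 (0.75) and BIRC6 (0.73), and to MAD2L2 they were CHTF8 (0.79), SMG5 (0.73) and MEPCE (0.73). POLK was closest in change to FNIP1 (0.85), ZNF280D (0.84) and ZNF292 (0.84), and REV1 to PHF20L1 (0.83), RBL1 (0.81) and N4BP2 (0.81). POLI was closest to RMND5A at 0.82, which was 0.60 without Hey, then ZNF780A and GMEB1 at 0.79 each, which were 0.56 and 0.59 without Hey. These are descriptions that share arrays and batches.

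The response of POLH differed between the related lines C13 and A2008. C13 is known as a line selected from A2008 for growth in cisplatin, and each was treated at a dose set for that line, in batch 3 for C13 and batch 2 for A2008, so line, dose and batch cannot be told apart. C13 had POLH levels of 9.44, 9.66 and 9.44 in treated cultures, and an untreated mean of 8.41. A2008 had 8.62, 8.80 and 8.91 in treated and 8.76, 8.52 and 8.61 in untreated cultures. The change was larger in C13 than in A2008 by 0.96 ± 0.12 (SE, limma adjusted p = 4.22e-08). That of RAD18 was larger by 0.46 ± 0.12 (limma adjusted p = 0.0126), at 0.27 in C13 and -0.20 in A2008, where 4.82% of all genes were called. The RAD18 call was lost without A2008 untreated culture 1 (0.35, limma adjusted p = 0.105), without A2008 treated culture 2 (0.40, 0.0639) or without C13 treated culture 2 (0.42, 0.0698).

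For HeyC2 against HeyA8 and for DOV13B against DOV13 none of the 8 passed the limma test (1 each at an unadjusted p under 0.05), where 0.755% and 0.0814% of all genes did. The POLH differences were -0.12 ± 0.13 between the Hey sublines and -0.10 ± 0.12 between the DOV13 sublines. The largest differences were 0.51 ± 0.19 for POLI in HeyC2 minus HeyA8 and -0.59 ± 0.20 for POLK in DOV13B minus DOV13 (SE, limma adjusted p = 0.199 and 0.178).

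Genes around this pathway were tested over the 46 lines, where 4.98% of all genes were called higher and 4.72% lower. Of 19 genes that add, remove or read ubiquitin on PCNA, 1 rose and 1 fell. RFWD3, a ubiquitin ligase that acts with translesion synthesis at stalled forks, rose by 0.31 ± 0.08 and was higher in 36 lines (SE, limma adjusted p = 0.0054). USP7, a protease that removes ubiquitin and stabilises RAD18, fell by 0.19 ± 0.05 (limma adjusted p = 0.0145). PCNA was at 0.14 and did not pass.

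Of 13 genes of fork protection and restart none passed the limma test, and 4 had an unadjusted p under 0.05. CLSPN, which carries the checkpoint signal at stalled forks, was at 0.30, and the helicase gene ZRANB3 at -0.30. Of 18 genes of other polymerases 3 rose, namely POLA2 of the primase complex by 0.27 ± 0.09, the base excision repair polymerase POLB by 0.18 ± 0.06 and POLE3 by 0.17 ± 0.06. Of 9 partners of REV7, MAD2L1BP rose by 0.21 and CHAMP1 by 0.17.

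Of 15 genes of end joining, the process POLQ serves in, 0 rose and 5 fell. These were LIG3, a ligase used in that pathway (-0.26 ± 0.06, limma adjusted p = 0.00188), and the genes of classical end joining NHEJ1 (-0.25), XRCC5 (-0.16) and XRCC6 (-0.12), with the break sensor NBN (-0.19). The list medians were 0.03 for the PCNA genes, 0.07 for fork restart, 0.07 for the other polymerases, 0.03 for REV7 partners and -0.04 for end joining, against -0.01 over all genes. Of 29 G1/S and replication genes 6 rose and 1 fell. The largest rises were those of the E2F family genes E2F7 (0.54) and E2F8 (0.37), then EXO1 (0.33), RFC3 (0.26) and E2F2 (0.21), and the helicase subunit gene MCM6 fell by 0.30. Of 23 mitotic genes 0 rose and 2 fell, namely PLK1 by 0.38 and KIF20A by 0.39. Without batch 4 the calls of RFWD3, USP7, POLA2, POLB, POLE3, MAD2L1BP, CHAMP1, NBN, XRCC5 and XRCC6 were lost, and so were those of E2F8, EXO1, RFC3, E2F2, MCM6, KIF20A, LYZ and CD68.

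Long genes tended to be lower after cisplatin, and several of the 8 are long. Genes were ranked by span into 10 equal groups. In group 10, with the longest spans, 16.5% fell and 0.924% rose, with a median change of -0.07. REV3L spans 184679 bp and belongs to that group, and its change of 0.13 lay above that median. POLQ spans 114558 bp, POLK 99218 bp, REV1 89726 bp and RAD18 86398 bp, all in group 9, whose median change was -0.02. POLI at 51788 bp and POLH at 44339 bp lie in group 7, with a median of 0.0024, and MAD2L2 at 17351 bp in group 5, with 0.01.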

How the data were processed

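The deposited values of 33297 probe sets on 171 arrays are on the log2 scale. Per the submitters' processing notes, the authors used RMA, with no version stated. These log2 values ran from 0.469 to 14.5. Gene names came from the platform annotation: 19460 probe sets had 1 symbol, 1754 several and 12083 none there. The probe set of highest mean stood for its gene, which gave 18417 genes. The 4 repeat arrays were averaged with their culture, which left 167 cultures.

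Changes within line and batch were tested against 0 over 46 lines with limma 3.58.1 in R 4.3.3 (lmFit and eBayes). OVCA433, present in batches 2 and 4, had its changes combined, except in means by batch, where it counts in batch 2. Cultures without a treated partner in their batch (PA-1 and SKOV-3 in batch 5) stayed out. A group-means model of 107 cultures of 18 lines (71 residual degrees of freedom) gave the changes within lines, the F tests and the contrasts of related lines. Benjamini-Hochberg adjustment over all genes was used, with a threshold of 0.05. Named genes were the 8, the list genes past the threshold (up to 6 per list), CDKN1A and MDM2, and the 3 genes most like each in change and in untreated level. Members and lists were chosen with earlier results of these data known. Same-numbered cultures were checked for pairing and did not deviate together, so no block was used. Arrays carry no read depth; their number limits precision. The steps were tested on simulated data. Alternatives changed the batches, lines, weights, scaling, filter, test and cultures used.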

Additional observations from a re-analysis of the deposited data

Results flagged for a closer look

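POLH in C13 and POLK in DOV13 each lay apart from the other lines of their batch, by Dixon's gap test at the 95% level. The POLH change of C13 was 1.10, and the next line of batch 3 was at 0.53. The POLK change of DOV13 was 0.50, and the next line of batch 2 was at 0.08. Chance flags about 1 in 20 groups, and 24 groups of gene and batch were tested.

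The change under cisplatin differed between the 18 replicated lines for each of the 8 genes (limma F test, adjusted over all genes). The adjusted p was 2.38e-11 for POLH, 5.53e-11 for RAD18, 8.43e-08 for POLQ, 8.10e-07 for REV3L and 1.94e-06 for MAD2L2. It was 0.000144 for POLI, 0.00312 for POLK and 0.0164 for REV1. Of all genes 51% passed this test. Between C13 and A2008 the change differed by 0.96 for POLH and by 0.46 for RAD18, and was higher in C13 for both.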

How the results depend on the processing

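POLH kept its direction in every setting and its call over lines in all but the 5 batches fitted alone. Of the 2 genes called over lines, 1 was left without batch 2, without batch 4, with the replicated lines only and with batches weighted equally (POLQ 0.25, limma adjusted p = 0.166), and 0 in each batch alone, with 5 to 17 lines. The number was 3, RAD18 added, without Hey alone and with OV56, OAW28 and treated OVCAR-10 culture 1 left out too. Of the lines left out there, RAD18 was at -1.54 in Hey, -0.34 in OV56 and 0.78 in OAW28. SKOV-6, with r = 0.959 to its match and the highest RAD18 change (1.30), was kept. The number was also 3 with related lines averaged and with quantile normalization, and 2 to 3 when each line was left out in turn. The 42 gene and line pairs called became 20 with each line fitted alone and 7 with a minimum change of 1.2-fold, of which 9 and 5 were of POLH. Leaving out each of 100 cultures in turn gave 36 to 44 pairs and lost 23 of them at least once (1 of 14 for POLH, all 6 for POLQ), 1 to 2 calls between related lines, 8 F tests and 24 untreated tests. The replicate block gave 39 pairs, 8 F tests and 2 related-line calls; POLI in HeyC2, POLK in DOV13 and RAD18 in DOV13 lost theirs. Of 53 same-numbered pairs 7 correlated over 0.1, with a median of -0.03, and in 0 lines did all. Signs turned for changes near 0. REV1 was at 0.0035 without batch 3, 0.034 without batch 5, 0.012, 0.028 and 0.068 in batches 1, 2 and 4 alone, 9.3e-05 in replicated lines, 0.013 with related lines averaged, 0.0034 with equal batch weights, 0.028 without Hey, 0.053 also without OV56, OAW28 and the OVCAR-10 culture, and -0.018 to 0.028 when each of 46 lines was left out in turn, above 0 for 15. POLI was at 0.0087 without batch 5, 0.087 in batch 4 alone and 0.0056 without Hey, OV56, OAW28 and that culture. In batch 1 alone POLQ was at -0.051, MAD2L2 at -0.082, RAD18 at -0.082 and POLE3 at -0.083. MAD2L2 was at -0.11 in batch 3 alone and -0.016 in replicated lines, POLK at -0.040 in batch 5 alone, POLA2 at -0.038 and POLE3 at -0.18 in batch 3 alone, POLE3 at -0.047 in replicated lines and MDM2 at -0.11 in batch 4 alone. In batches 1 and 3 alone E2F8 was at -0.17 and -0.055, EXO1 at -0.12 and -0.011 and E2F2 at -0.031 and -0.0031, and RFC3 was at -0.11 in batch 1. Of the 24 other named genes past the threshold over lines, 18 lost it without batch 4, 10 without batch 5, 8 without batch 2, 17 with batches weighted equally, 9 weighted by cultures, 6 with quantile normalization, 0 to 2 without batch 1, 3 or Hey, and 14 with replicated lines only, where 1 more reversed. The causes were not tested. Signal over background was not given, so how far it limits low values, such as POLI in treated Hey cells, is unknown.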
